A study of Mus musculus with 21 samples.

Results

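The cytosolic ribosomal protein genes encode the proteins of the ribosome that works in the cytoplasm, in its large (Rpl and Rplp symbols) and small (Rps symbols and Rpsa) subunits. They were chosen by gene symbol in a table of nascent RNA counts, and 77 of its 24984 genes matched, 46 of the large and 31 of the small subunit. No fold change entered the rule; the measured value it uses is the depth of 1 library that it leaves out. The genes were picked as a subject with earlier results of these data known, so counts over them are descriptions, and no p-value is given for them as a group.

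The counts come from BrU-seq of cortical cultures from CD1 mice, kept for 17 days in vitro. Living cells take up bromouridine, and RNA that carries it is isolated and sequenced, so the counts reflect RNA made while it was present, here the last 30 min at 2 mM. Cultures stood for 30 min in either the solvent DMSO or 25 µM MM401, a peptidomimetic that blocks the binding of the histone H3 lysine 4 methyltransferase MLL1 to WDR5. They then received 40 µM bicuculline (as methiodide), which blocks GABA-A receptors and raises network activity, or water. The DMSO groups were water 4 h, bicuculline 1 h and bicuculline 4 h, and the MM401 groups were water 1 h, water 4 h, bicuculline 1 h and bicuculline 4 h, each with 3 libraries described as biological replicates of mixed sex. A DMSO group with water at 1 h was not analysed here, so bicuculline at 1 h in DMSO is set against water at 4 h, where the treatment and the time differ together. MM401 was used at a single dose, and the cultures hold several cell types. In such bulk samples fewer cells of a type and less RNA per cell cannot be told apart.

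The proteins stand in fixed proportion in a ribosome, and growing cells make them in step with ribosomal RNA. Their mRNAs are short, come from compact genes that nearly every cell transcribes strongly, and mostly begin with a run of pyrimidines (the 5′ terminal oligopyrimidine tract, or TOP) through which mTOR signalling sets their translation. In neurons these mRNAs also travel into axons and dendrites, where local protein synthesis accompanies lasting changes of synapses.

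Depth ran from 49886348 to 87939384 counts in genes over the 20 libraries used. The library left out, replicate 3 of MM401 with water at 4 h, had 316741 counts, of which 230 lay in ribosomal protein genes, and 42 of the 77 genes had no count in it. MM401 with water at 4 h therefore has 2 libraries. Summed levels of the 8 neuron markers (Map2, Rbfox3 and others) ran from 4849 to 7845 counts-per-million units (CPM, TMM-scaled), of the 8 astrocyte markers from 1078 to 1680, of the 8 oligodendrocyte lineage markers from 168 to 226, of the 8 microglia markers from 31.5 to 52.4 and of the 5 endothelium markers from 2.53 to 4.74, and no marker was at 0 in all libraries. The early activity genes Fos and Npas4 rose with bicuculline in each of the 4 comparisons, with log2 fold changes of 1.18 to 4.44.

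Of the 77 genes, 73 passed the filter on low counts, among 16959 genes tested, and each of the 73 had a median of at least 100 counts. The other 4 genes were Rpl26 and Rps27, with no count in any of the 20 libraries, Rpl30, with 0 to 6 counts, and Rpl34, with 0 to 5. Each of these shares 97.8% to 99.9% of its span with another annotated gene on the same strand (Gm15772, Rps27rt, Gm12191 and Rpl34-ps1), and how the counting treated reads in such overlaps is not given in the sources used here. Of the 77 genes, 22 contain a small nucleolar RNA gene and 43 overlap no other annotated gene.

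The stretches below give the start regions of genes on which the results turn, to show what differs and what is shared at the start of transcription. They are from RefSeq on GRCm38.p6 and hold 45 bases before and 20 from the annotated start, 5′ to 3′ on the strand of the gene, with the first 10 transcribed bases in capitals. The first 3 genes (Rps18 at chr17:33955646-33955710, minus; Rps24 at chr14:24490633-24490697, plus; Rps19 at chr7:24884547-24884611, plus) were lower after 1 h of bicuculline, and the next 3 (Rpl41 at chr10:128549149-128549213, minus; Rpl10 at chrX:74270771-74270835, plus; Rpl24 at chr16:55966230-55966294, plus) higher. The last 3 (Rps4x at chrX:102189372-102189436, minus; Rps3a1 at chr3:86142649-86142713, minus; Rpl23 at chr11:97782420-97782484, minus) were lower in the mean effect of MM401.
Rps18: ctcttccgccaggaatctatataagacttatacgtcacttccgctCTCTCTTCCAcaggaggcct
Rps24: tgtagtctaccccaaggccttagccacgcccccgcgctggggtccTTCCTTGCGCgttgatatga
Rps19: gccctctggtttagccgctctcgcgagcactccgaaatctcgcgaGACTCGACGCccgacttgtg
Rpl41: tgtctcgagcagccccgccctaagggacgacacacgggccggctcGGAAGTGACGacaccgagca
Rpl10: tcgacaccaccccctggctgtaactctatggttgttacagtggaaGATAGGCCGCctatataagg
Rpl24: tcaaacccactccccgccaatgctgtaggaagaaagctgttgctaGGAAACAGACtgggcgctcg
Rps4x: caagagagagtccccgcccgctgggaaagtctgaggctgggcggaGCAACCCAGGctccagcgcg
Rps3a1: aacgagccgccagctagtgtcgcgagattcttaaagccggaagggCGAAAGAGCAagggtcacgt
Rpl23: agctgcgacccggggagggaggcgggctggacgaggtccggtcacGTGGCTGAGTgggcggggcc

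A TOP start was searched for as C at the annotated start followed by at least 4 pyrimidines. Of the 57 ribosomal protein genes with a start region in the RefSeq table, 12 (21.05%) had one, against 2.505% of the 32851 start regions of all genes. Rps18 was among them, with a run of 9 pyrimidines, and Rps24 opens with a run of 6 that begins with T and so did not match. The table holds 1 annotated start that can lie some bases from the start in use, so a missing match says only that these letters are not at that position. The 7-base core CCGGAAG of ETS factor sites, searched on both strands over 300 bases around the start, lay in 23 of the 57 (40.35%) and in 8.858% of all regions, while TATAAA lay in 6 (10.53%) and in 13.62%. These 2 motifs cannot overlap each other, but CTTCCGG, the core on the other strand, can overlap a TOP start. All of these matches are descriptions and not measured sites.

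The genes are short. Their median span was 3.07 kb, from 0.853 kb (Rpl36) to 11.8 kb (Rps15a), against 23.1 kb over all genes tested. Per kb of span their mean level had a median of 2.27 CPM, from 0.944 for Rpl22, a large-subunit protein that mice can lose, to 6.24 for Rpl8, which lies at the catalytic centre of the large subunit. Every one of the 73 lay above the median of all genes tested, 0.592 CPM per kb, and 29 lay above the 90th percentile. Counts are taken over whole spans, and length classes differed: other genes over 100 kb had a median log2 fold change of 0.19 after 1 h of bicuculline in DMSO, and those under 5 kb -0.19.

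**Figure D1:**
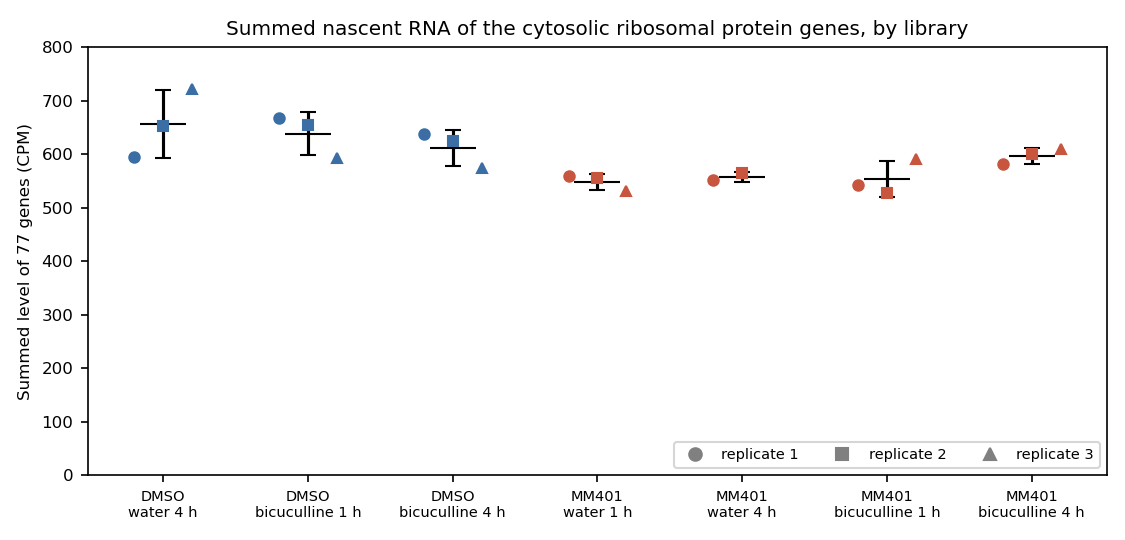
Summed level of the 77 ribosomal protein genes in CPM (vertical axis from 0) in each of the 20 libraries by group, with points shaped by replicate number, a line at the group mean and bars of 1 SD. The DMSO groups have means of 612 to 656 CPM and the MM401 groups of 548 to 597 CPM.

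The summed level of the 77 genes had higher means in the DMSO groups than in the MM401 groups. With DMSO it was 594, 653 and 721 CPM in the 3 water 4 h libraries, 638 ± 39.7 with bicuculline at 1 h (SD, n = 3) and 612 ± 33.5 at 4 h (SD, n = 3). With MM401 the sum was 548 ± 15.2 after 1 h in water (SD, n = 3) and 557 ± 9.50 after 4 h (SD, n = 2). With MM401 and bicuculline it was 553 ± 33.5 at 1 h (SD, n = 3) and 597 ± 14.7 at 4 h (SD, n = 3). The MM401 and DMSO libraries do not overlap in 4 h water or, narrowly, in 1 h bicuculline, and they overlap in 4 h bicuculline. The DMSO water libraries spread most, and the lowest of them, replicate 1, also had the lowest share of counts in other genes under 5 kb (0.713%, against 1.00% and 1.03%) and the highest share in genes over 100 kb (62.2%, against 58.0% and 56.9%).

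One hour of bicuculline raised some large-subunit genes and lowered some small-subunit genes. In DMSO 7 of the 73 genes rose and 8 fell, against 20% and 24.5% of all genes tested that were called higher and lower and 44.6% called either way, so the share that changed was below the background (called at a Benjamini-Hochberg adjusted p under 0.05, edgeR quasi-likelihood). The median log2 fold change was -0.07 over the 73 genes and -0.04 over all genes. With 1 library of either DMSO group left out, 4 to 8 genes rose and 3 to 13 fell, with medians from -0.15 to 0.03. The shares of all genes in those fits are not reported here. Of the 43 large-subunit genes tested 6 rose and 1 fell, and of the 30 small-subunit genes 1 rose and 7 fell; the difference between subunits was not tested. With MM401, where both groups were taken at 1 h, 11 genes rose and 10 fell, against 18.1% and 21.8% of all genes (39.9% either way), with medians of -0.02 and -0.002. There 8 large-subunit genes rose and 2 fell, and 3 small-subunit genes rose and 8 fell. Leaving out replicate 1 of the MM401 water 1 h group, 6 genes rose and 7 fell, against 15.8% and 19.7% of all genes, and leaving out replicate 2, 7 rose and 6 fell, against 15.1% and 17.6%.

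By fold change the largest rise in both arms was in Rpl41, which encodes a very short basic protein at the interface of the subunits. In DMSO it had 8.31, 9.87 and 6.40 CPM after 1 h of bicuculline against 4.64, 5.78 and 5.40 in water, so that every bicuculline library was above every water library. With MM401 it had 6.88, 6.38 and 7.56 CPM against 5.24, 3.75 and 3.25, again without overlap. Rpl41 rose by 0.64 ± 0.17 on the log2 scale (SE; edgeR adjusted p = 0.0037) in DMSO and by 0.77 ± 0.17 (SE; edgeR adjusted p = 0.0012) with MM401.

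Rpl21, another large-subunit protein gene, had 17.6, 16.3 and 15.3 CPM against 10.8, 10.8 and 13.2 in DMSO. With MM401 it had 16.4, 15.4 and 15.9 CPM against 12.6, 10.7 and 10.3. In both arms the libraries separate, and the log2 fold change was 0.50 ± 0.11 in DMSO (SE; edgeR adjusted p = 0.00052) and 0.50 ± 0.11 with MM401 (SE; edgeR adjusted p = 0.00063). Rpl10, which joins the large subunit late in its maturation, near the catalytic centre, had 14.6, 12.1 and 11.7 CPM against 10.3, 11.1 and 10.1 in DMSO, and 11.7, 11.3 and 11.3 CPM against 8.41, 8.46 and 8.30 with MM401. Its groups also separate, with log2 fold changes of 0.28 ± 0.09 (SE) and 0.44 ± 0.09 (SE) and edgeR adjusted p of 0.013 and 0.00043. In DMSO this call rests on replicate 1 of the bicuculline group, without which the adjusted p was 0.12. Rps29, a zinc-binding protein of the small subunit, rose with MM401 (0.44 ± 0.17, SE; edgeR adjusted p = 0.047), and it lost the call without replicate 2 or 3 of the bicuculline group or any 1 of the water 1 h libraries (adjusted p of 0.069 to 0.17).

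Small-subunit genes made up most of the falls. Rps24, one of the genes mutated in Diamond-Blackfan anaemia, had 16.9, 16.0 and 15.6 CPM after 1 h of bicuculline against 19.1, 20.5 and 22.7 in water in DMSO. With MM401 it had 12.4, 12.2 and 13.0 CPM against 17.1, 19.0 and 17.5. The libraries separate in both arms, with a log2 fold change of -0.36 ± 0.07 in DMSO (SE; edgeR adjusted p = 0.00020) and of -0.51 ± 0.07 (SE; edgeR adjusted p = 6.0e-06).

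Rps18, in the head of the small subunit, had 6.17, 5.63 and 6.29 CPM against 7.57, 8.18 and 9.36 in DMSO, and 4.69, 4.42 and 5.88 CPM against 7.70, 6.59 and 6.03 with MM401. Both arms separate, narrowly with MM401, at a log2 fold change of -0.48 ± 0.11 in DMSO (SE; edgeR adjusted p = 0.0018) and of -0.43 ± 0.12 (SE; edgeR adjusted p = 0.0052). Rps19, the gene most often mutated in Diamond-Blackfan anaemia, had 5.88, 6.22 and 5.95 CPM against 7.35, 7.06 and 8.94 in DMSO, and 5.98, 4.83 and 5.70 against 7.03, 7.27 and 7.24 with MM401. It fell by 0.37 and 0.39 on the log2 scale (edgeR adjusted p = 0.0069 and 0.0066), but the call was lost without replicate 3 of the DMSO water group (adjusted p = 0.084) and, with MM401, without replicate 2 of the bicuculline group (adjusted p = 0.055). Other falls were Rpl35 (-0.37) in DMSO and Rpl29 (-0.41) with MM401, and the libraries of Rpl35 overlap between groups. Rpl35 was not called without replicate 2 or 3 of either DMSO group (adjusted p of 0.073 to 0.21), nor Rpl29 without replicate 3 of the bicuculline group or replicate 1 or 2 of the water 1 h group (0.092 to 0.12).

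The DMSO and MM401 arms share no library in these 1 h comparisons. The 7 genes that rose in DMSO (Rpl41, Rpl24, Rpl17, Rpl21, Rps3, Rpl4 and Rpl10) all rose with MM401 too, where they were 63.6% of the 11 that rose. Among them Rpl4 and Rpl17 line the tunnel through which the new protein leaves, Rpl24 bridges the subunits and Rps3 lies where the mRNA enters. In DMSO the call of Rps3 was lost without replicate 1 (adjusted p = 0.062) and that of Rpl4 without replicate 2 of the water group (0.053), and with MM401 that of Rpl4 without replicate 1 of the bicuculline group (0.082) or replicate 2 of the water group (0.099). Of the genes that fell, 5 were shared (Rps7, Rps24, Rps18, Rps20 and Rps19), which is 62.5% of the 8 in DMSO and 50% of the 10 with MM401. Over all genes tested, 66.1% of the rises in DMSO were shared (73.2% of those with MM401) and 70.4% of the falls (79.2%). The same sign in both arms was seen for 56 of the 73 genes (76.7%) and for 77.4% of all genes, so the agreement of the ribosomal protein genes was near the background.

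**Figure D2:**
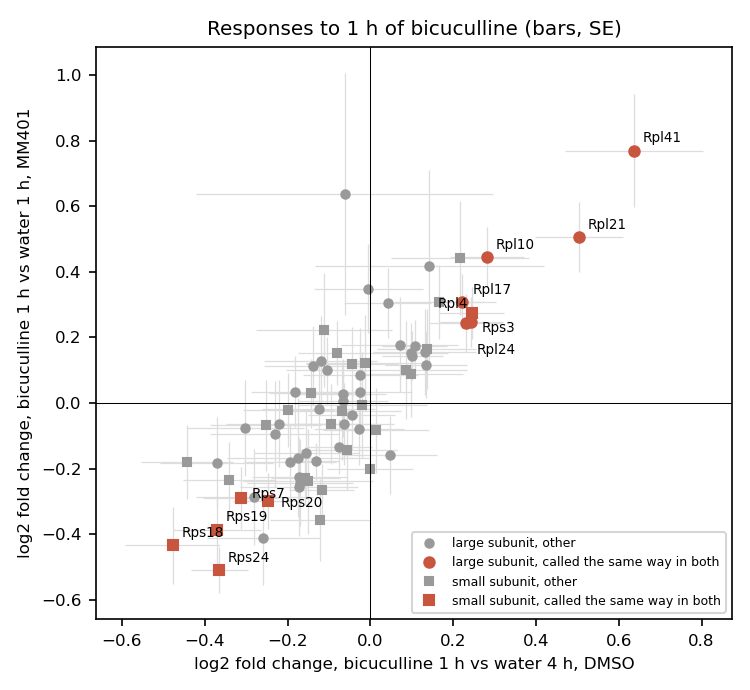
Log2 fold change of each of the 73 genes after 1 h of bicuculline in DMSO (horizontal, against water at 4 h) and with MM401 (vertical, against water at 1 h), with bars of 1 SE, circles for the large and squares for the small subunit, and colour for genes called the same way in both. The 7 shared rises lie at the upper right, led by Rpl41 and Rpl21, and the 5 shared falls, all of the small subunit, at the lower left.

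Start sequences were counted over all genes called at 1 h in each arm. Among the genes lower in DMSO, 3 of the 6 with a RefSeq region had a TOP start, and among those higher 0 of 5 had one, as Rpl41, Rpl10 and Rpl24 show with G at the start. Of the shared falls with a region only Rps18 matched, and its RefSeq start lies 24 bases from the start in the count table, while Rps19 begins with G like the genes that rose. With MM401 the numbers were 2 of 7 lower and 0 of 7 higher. These are counts of few genes, and no test was run on them.

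A correction for gene length changed the split between rises and falls. With each library's trend of counts on gene length removed, 12 genes rose and 3 fell in DMSO at 1 h, with a median of 0.05, and 8 rose and 9 fell with MM401, with a median of -0.09. The medians of all genes in that fit were -0.07 in DMSO and -0.04 with MM401. Rpl41 (0.76 and 0.60), Rpl21 (0.63 and 0.50) and Rpl10 (0.41 and 0.37) still rose in DMSO and with MM401, Rps18 (-0.35 and -0.47) and Rps24 (-0.25 and -0.47) still fell, and Rps19 fell with MM401 (-0.37) but was not called in DMSO (-0.25, edgeR adjusted p = 0.061). Rpl35 in DMSO (-0.24, adjusted p = 0.093) and Rps29 with MM401 (0.29, adjusted p = 0.14) also lost the call with the length correction. Other genes under 5 kb had medians of -0.19 and 0.03 in the 2 comparisons, against -0.07 and -0.02 for the 63 ribosomal protein genes of that class. Scaling by plain library size instead of TMM moved the median of all genes tested to -0.23 in DMSO and -0.21 with MM401, and the split then was 2 rises and 23 falls in DMSO and 1 and 21 with MM401. The shares of all genes called in the bicuculline comparisons with the length correction or under plain library size are not reported here. The splits under these settings therefore cannot be set against a background.

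After 4 h of bicuculline the DMSO and MM401 arms had opposite splits. In DMSO 2 genes rose and 15 fell, against 23.7% and 25.5% of all genes called higher and lower, with medians of -0.13 over the 73 genes and -0.02 over all. The share called either way over all genes was 49.2% in DMSO and 44.6% with MM401. With MM401 6 rose and 1 fell, against 23.0% and 21.7%, with medians of 0.12 and 0.02. Only Rpl24 rose (50% of the DMSO rises, 16.7% of the MM401 rises) and only Rps18 fell (6.67% and 100%) in both. Over all genes 70.9% and 73% of the rises and 65.6% and 77.3% of the falls were shared, and 39 of 73 genes (53.4%) had the same sign in both arms against 80.3% of all genes, a difference that was not tested. The interaction at 4 h, the response with MM401 minus that in DMSO, was above 0 for 69 of 73 genes, with a median of 0.21, but it was called for none of them or of all genes (0% of genes; 8 of the 73 at an unadjusted p under 0.05, and 0 by DESeq2). The median interaction of other genes under 5 kb was 0.33, and with the length correction that of the ribosomal protein genes was -0.07. The 8 astrocyte markers were all above 0 in the interaction as well (median 0.38, none called), as were 6 of the 7 microglia markers tested (median 0.20, none called), while 7 of the 8 neuron markers were below 0 (median -0.20, none called) and 5 of the 8 oligodendrocyte lineage markers above it (median 0.11, none called). With MM401 at 4 h 3 astrocyte markers were called higher (median 0.41; summed levels of 1322 to 1396 CPM against 1091 to 1209 in water) and 5 microglia markers (median 0.52; 48.8 to 52.4 against 33.9 to 38.0). Of the oligodendrocyte lineage markers 3 were called higher in each arm at 4 h (medians of 0.35 with MM401 and 0.10 in DMSO), and of the neuron markers 4 were higher and 2 lower with MM401 and 5 and 2 in DMSO (medians of 0.21 and 0.45). In DMSO at 4 h 0 astrocyte markers were called (median -0.04) and 2 microglia markers were higher (median 0.24). At 1 h the astrocyte medians were -0.0008 in DMSO and 0.43 with MM401, where 4 were called higher. The part of these cells in the results was not tested.

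Rps18 had the lowest fold change in DMSO, with 5.73, 5.90 and 5.27 CPM after 4 h of bicuculline against 7.57, 8.18 and 9.36 in water. With MM401 it had 5.78, 5.35 and 5.29 CPM against 7.78 and 6.77. The groups separate in both arms, with log2 fold changes of -0.57 ± 0.11 in DMSO (SE; edgeR adjusted p = 0.00026) and of -0.41 ± 0.13 (SE; edgeR adjusted p = 0.013), the latter lost without replicate 1 of the water group (-0.33, adjusted p = 0.13). Rps19 fell by 0.45 in DMSO, Rpl14 by 0.42 and Rpl32 by 0.42 on the log2 scale (edgeR adjusted p of 0.0013, 0.0094 and 0.020). Rpl14 was not called without replicate 1 of the DMSO bicuculline 4 h group (adjusted p = 0.058), nor Rpl32 without replicate 3 of that group (0.11) or of the water group (0.14), and the libraries of Rpl32 overlap.

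The rises at 4 h were in large-subunit genes for the most part. Rpl24 had 22.6, 18.9 and 19.4 CPM in DMSO against 15.7, 16.1 and 19.3, with overlap, and 16.3, 17.8 and 18.1 with MM401 against 13.6 and 14.1, without. It rose by 0.25 ± 0.09 in DMSO (SE; edgeR adjusted p = 0.020) and by 0.33 ± 0.10 (SE; edgeR adjusted p = 0.0097), and Rpl4 rose by 0.23 ± 0.08 (SE; edgeR adjusted p = 0.017) in DMSO. In DMSO both lost the call without replicate 1 of the bicuculline group or replicate 2 of the water group (adjusted p of 0.079 to 0.15), and Rpl24 also without replicate 1 of the water group (0.086).

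With MM401 Rpl7a, a large-subunit protein, had 6.39, 6.45 and 6.33 CPM against 4.47 and 4.59 in water, Rpl10 had 12.6, 12.5 and 12.1 against 9.10 and 9.42, and Rpl19 had 7.24, 8.53 and 7.88 against 5.93 and 6.45. All 3 separate, with log2 fold changes of 0.50 ± 0.15, 0.42 ± 0.10 and 0.35 ± 0.12 (SE) and edgeR adjusted p of 0.0083, 0.0019 and 0.020. The water group has 2 libraries, and without either of them Rpl7a (adjusted p of 0.070 and 0.055), Rpl19 (0.19 and 0.064) and Rpl24 (0.11 and 0.060) were not called. Rpl19 was also lost without replicate 2 of the bicuculline group (0.078).

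The count in DMSO at 4 h moved with single water libraries. Without replicate 1 of DMSO with water it was 27 genes, 1 higher and 26 lower, against 22.9% and 25.3% of all genes in that fit, so that the share of falls lay above the background. Without replicate 3 it was 10, 2 higher and 8 lower, against 21.2% and 24.7%. With MM401 it was 2 and 3 when replicate 1 or replicate 2 of its water group was left out, against 15.2% higher and 16.6% lower, and 14.9% and 17.6%, of all genes. The length correction turned both splits: 9 genes rose and 4 fell in DMSO (median -0.007), and 2 rose and 8 fell with MM401 (median -0.03). The medians of all genes in that fit were -0.04 in DMSO and -0.03 with MM401, and the shares of all genes called are again not reported here. Other genes under 5 kb had medians of -0.16 in DMSO and 0.14 with MM401, close to the -0.14 and 0.12 of the ribosomal protein genes of that class. Under plain library size the splits were 0 and 48 in DMSO, with a median of all genes of -0.30, and 2 and 2 with MM401, with a median of all genes of -0.06. With the length correction Rps18 still fell in both arms (-0.42 and -0.54), and Rpl7a still rose with MM401 (0.31). Rpl10 (0.22, adjusted p = 0.12), Rpl19 (0.23, 0.076) and Rpl24 (0.26, 0.051) with MM401, and Rpl32 in DMSO (-0.26, 0.12), then lost the call.

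**Figure D3:**
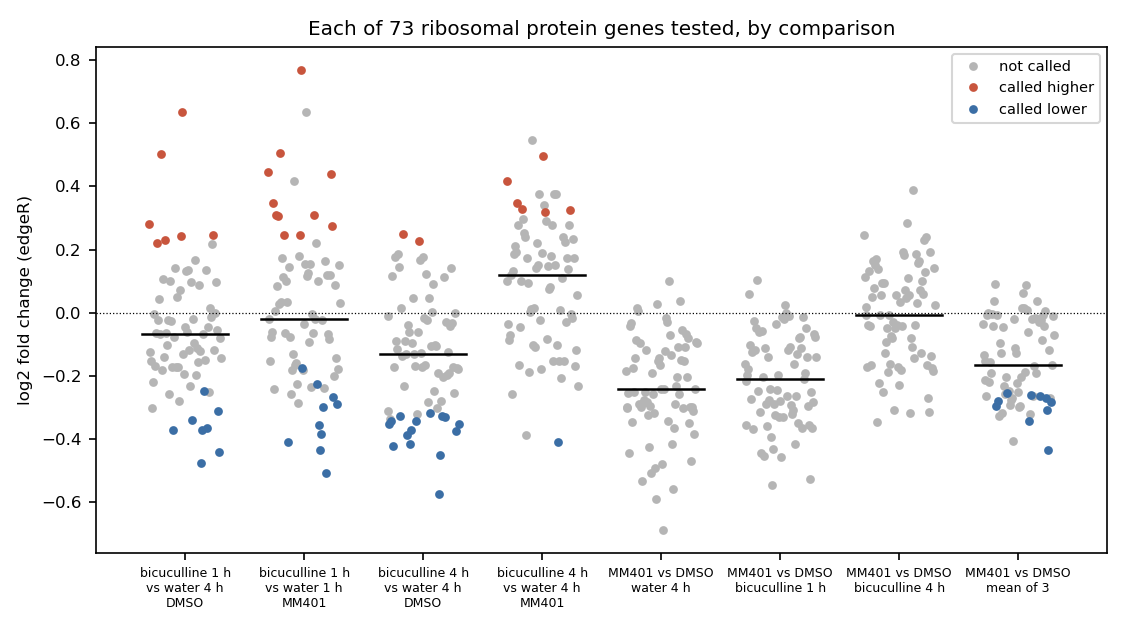
Log2 fold change of each of the 73 genes (points, vertical axis) in 8 comparisons, with a line at the median and colour for genes called higher or lower by edgeR. The 4 bicuculline comparisons hold calls in both directions, and the MM401 comparisons hold calls only in the mean of 3, all 10 lower.

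From 1 h to 4 h of bicuculline, 5 genes fell and 0 rose in DMSO, against 15.2% and 19.1% of all genes (34.2% either way), and 7 rose and 0 fell with MM401, against 17.5% and 16% (33.6% either way). The DMSO falls included Rpl41 (-0.47), Rps16 (-0.39), Rpl21 (-0.36) and Rpl10 (-0.29), of which Rpl41, Rpl21 and Rpl10 are among the genes higher at 1 h; the comparisons share the 1 h libraries. The MM401 rises were Rpl19 (0.45), Rpl7a (0.34), Rps10 (0.34), Rpl9 (0.27), Rps24 (0.27), Rps15a (0.25) and Rpl5 (0.16). In DMSO no fall was left without replicate 1 of the 1 h group, where 1 gene was called higher (all genes: 13.7% lower, 17.3% higher). In that group, 2 falls and 1 rise were called without replicate 2 (12.5% and 16.6%) and 8 falls without replicate 3 (16.4% and 14.9%). For the 4 h group, it was 2 falls without replicate 1 (12.4% and 16.4%) and 0 without replicate 3 (13.4% and 17%). With MM401 it was 4 rises without replicate 1 of the 1 h group (all genes: 14.1% higher, 13.1% lower). It was 2 rises without replicate 2 of that group (14.1% and 13.5%), and 2 without replicate 3 of the 4 h group (14.4% and 13.5%). Rpl41 and Rps16 in DMSO, and Rps10, Rpl9 and Rpl7a with MM401, each lost the call in 4 or more of the 6 fits that leave out 1 library of these groups (adjusted p of 0.051 to 0.20), and Rpl21 in 2 of 6 (0.052 and 0.091). With the length correction 4 genes rose and 2 fell with MM401, at a median of 0.04 in place of 0.14 (0.03 over all genes in that fit). RLE scaling and DESeq2 each gave 5 rises and 1 fall. The falls with the length correction were Rpl41 (-0.35) and Rpl23 (-0.25), while Rpl7a (adjusted p = 0.079), Rpl9 (0.17) and Rpl5 were not called. In water with MM401, 0 of the 73 genes were called between 1 h and 4 h (edgeR; 0 at an unadjusted p under 0.05, and 0 by DESeq2), against 0.867% of all genes.

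Several genes had been set to be named whatever their values. Rpl3, which helps to form the catalytic centre, showed 0.10 ± 0.07 on the log2 scale in DMSO and 0.14 ± 0.07 with MM401 after 1 h (SE). Rplp0, the base of the stalk that recruits translation factors, had -0.12 ± 0.14 and 0.13 ± 0.14, Rps2, near the mRNA entry, -0.07 ± 0.14 and -0.02 ± 0.15, and Rps6, the small-subunit protein phosphorylated downstream of mTOR, -0.06 ± 0.12 and -0.14 ± 0.12 (SE). None of these 4 was called in any bicuculline comparison against water, but with the length correction Rpl3 rose at 1 h in DMSO (0.23, edgeR adjusted p = 0.024). Rpl22 (-0.33 ± 0.11, SE; edgeR adjusted p = 0.015) and Rpsa, a small-subunit protein also known as the laminin receptor (-0.35 ± 0.10, SE; edgeR adjusted p = 0.0063), fell in DMSO at 4 h. With the length correction only 4 genes fell in that comparison, among them Rps18, Rps19 and Rpl14, so Rpl22 and Rpsa did not both keep the call. How the calls of Rpl22 and Rpsa at 4 h move with single libraries was not examined.

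MM401 lowered a small set of ribosomal protein genes when its effect was averaged over the 3 conditions that both arms share. No single condition gave a call. In water at 4 h 68 of the 73 genes were below 0, with a median log2 fold change of -0.24 against -0.01 over all genes, and 0 were called (edgeR; 25 lower at an unadjusted p under 0.05, and 4 called lower by DESeq2) against 0.0826% of all genes. With bicuculline at 1 h 70 were below 0, with a median of -0.21 against 0.01, and 0 were called (31 lower at an unadjusted p under 0.05, and 4 by DESeq2) against 0.0059%. With bicuculline at 4 h 37 were below 0, with a median of -0.007 against -0.003, and 0 were called (2 higher and 9 lower at an unadjusted p under 0.05, and 0 by DESeq2) against 0%. The change of the MM401 effect from 1 h to 4 h of bicuculline, a contrast chosen after the data were seen, had a median of 0.21 and was called for 0 of the 73 genes (edgeR; smallest adjusted p = 0.70, and 11 higher at an unadjusted p under 0.05).

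In water at 4 h the call depended on 1 library. Without replicate 1 of DMSO with water 19 genes were called lower, against 3.07% of all genes in that fit, and in the interaction at 4 h 3 were then called higher, against 2.36% of all genes. Without replicate 3 of DMSO with bicuculline at 1 h 1 gene was called lower in that condition, against 0.00589% of all genes in that fit. The 8 astrocyte markers were all below 0 in water at 4 h as well (median -0.43, none called), with summed levels of 1127 to 1605 CPM in DMSO and 1091 to 1209 with MM401, and at 0.08 in bicuculline at 1 h; their part in the result was not tested.

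In the mean effect 10 of the 73 genes fell and 0 rose, against 0.0884% and 0.0413% of all genes called lower and higher (0.13% either way), and these 10 were among 15 genes called lower in all. The median was -0.16 over the 73 genes and -0.004 over all, and 64 of 73 were below 0. Of the 10, 7 were of the small subunit (Rps4x, Rps14, Rps3a1, Rps7, Rps3, Rps24 and Rps15a) and 3 of the large (Rpl23, Rpl24 and Rpl35a). Of the 43 genes with no overlapping annotated gene, 7 were called. The 8 astrocyte markers were all below 0 in the mean effect too, with a median of -0.14 and none called.

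Rps4x, a small-subunit gene on the X chromosome, had the lowest value. In water at 4 h it had 9.98, 8.91 and 11.2 CPM with DMSO and 7.19 and 7.27 with MM401. With bicuculline it had 11.3, 10.2 and 8.47 against 6.94, 6.27 and 7.60 at 1 h, and 8.79, 9.50 and 8.36 against 6.92, 7.41 and 7.11 at 4 h. In these 3 conditions every MM401 library was below every DMSO library, and the mean log2 fold change was -0.44 ± 0.06 (SE; edgeR adjusted p = 0.0033).

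Rps3a1, which lies where the mRNA leaves the small subunit, had 11.3, 12.2 and 13.0 CPM with DMSO against 9.58 and 10.2 with MM401 in water at 4 h. With bicuculline it had 11.5, 10.8 and 11.4 against 8.78, 8.75 and 8.74 at 1 h, and 12.8, 11.1 and 11.8 against 9.07, 10.3 and 10.2 at 4 h. Its libraries also separate throughout, and the mean log2 fold change was -0.31 ± 0.05 (SE; edgeR adjusted p = 0.0050).

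Rps14, in the platform of the small subunit, had 10.8, 11.4 and 13.9 CPM against 9.22 and 8.82 in water, 11.3, 10.7 and 9.42 against 8.16, 8.55 and 8.93 at 1 h, and 11.6, 9.51 and 9.29 against 7.45, 7.61 and 9.25 at 4 h. The separation at 4 h is narrow, and the mean log2 fold change was -0.34 ± 0.07 (SE; edgeR adjusted p = 0.038). Rpl23, a large-subunit protein that binds Mdm2 when it is free of the ribosome, had 14.2, 14.3 and 16.0 CPM against 12.4 and 11.9 in water, 16.0, 16.6 and 15.3 against 14.9, 13.0 and 12.6 at 1 h, and 14.96, 15.5 and 14.5 against 12.5, 10.96 and 11.8 at 4 h. It separates within each condition, and the mean log2 fold change was -0.30 ± 0.05 (SE; edgeR adjusted p = 0.0090). At the other end Rpl22 had 0.09 ± 0.07 (SE; edgeR adjusted p = 0.93), the highest value of the 73.

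**Figure D4:**
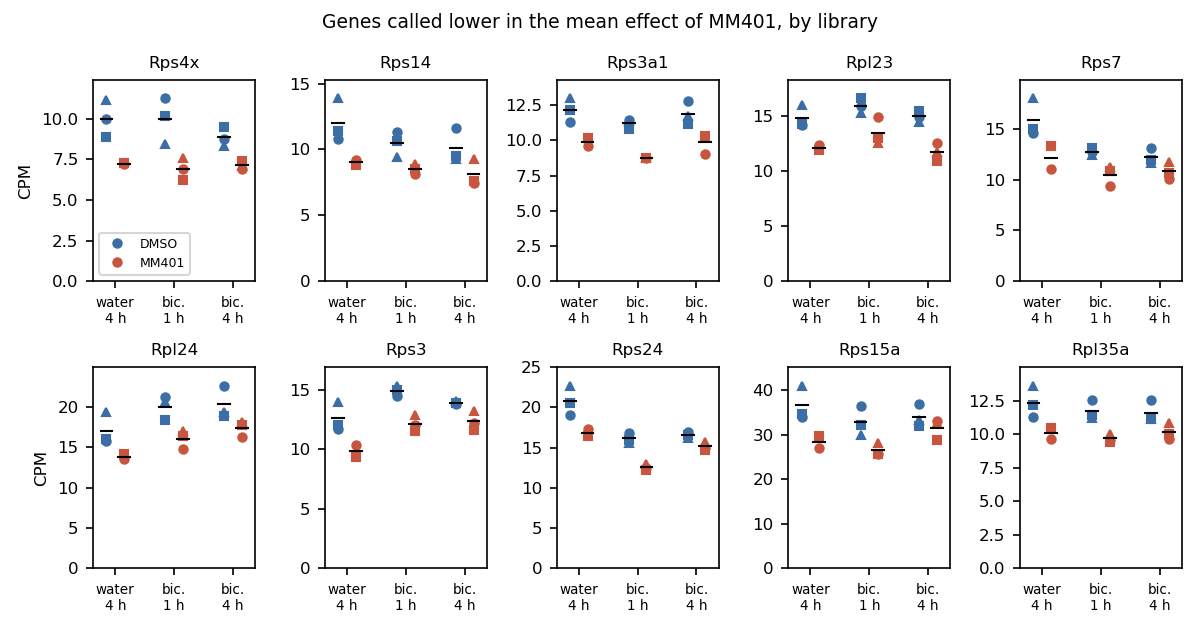
CPM (vertical axes from 0) of the 10 genes called lower in the mean effect of MM401, in each library of water 4 h, bicuculline 1 h and bicuculline 4 h, with DMSO in blue, MM401 in red, points shaped by replicate number and lines at group means. The MM401 mean lies below the DMSO mean in each condition for each gene, and the arms of Rps4x do not overlap in these conditions.

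The number called in the mean effect varied with the libraries and settings used, while the direction of the 10 genes did not. That constant direction adds no support, because the 10 were chosen for falls in these same libraries, which the alternatives reuse. All 10 were below 0 in each of 26 alternatives, 17 of which leave out 1 library, and Rps4x was called in 25 of them, Rps3a1 in 24, Rpl23 and Rps24 in 23, Rps3 in 21, and the other 5 in 9 to 12. The count was 0 with the shallow library included, where no gene of the 73 passed, 1 (Rps4x) under plain library size, 2 over the bicuculline conditions alone, 5 in a fit of the compared groups only and 13 by DESeq2. It was 4 without MM401 bicuculline 1 h replicate 2 and 6 without DMSO bicuculline 1 h replicate 2. It was 5 without DMSO bicuculline 1 h replicate 1, DMSO bicuculline 4 h replicate 1, DMSO water replicate 3, MM401 bicuculline 1 h replicate 1, MM401 bicuculline 4 h replicate 1 or 2, or MM401 water 4 h replicate 1 or 2. Rps14 was not called without any 1 of these libraries (adjusted p of 0.069 to 0.17).

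The mean effect was also set against genes of like length. Other genes under 5 kb had a median of -0.03 in the mean effect, against -0.16 for the ribosomal protein genes of that length. The medians of these 2 classes were -0.21 and -0.24 in 4 h water, 0.01 and -0.21 in 1 h bicuculline, and 0.12 and 0.02 in 4 h bicuculline. With the length correction 8 genes fell in the mean effect (Rps4x, Rps14, Rpl27, Rps3a1, Rpl23, Rps3, Rps15a and Rps24), of 14 genes called lower in all, and 7 of them were among the 10, with a median of -0.13. The correction left a median of -0.03 in 4 h water and of -0.10 in 4 h bicuculline. In 1 h bicuculline it left -0.22, and Rps4x (-0.54) and Rps24 (-0.37) were then called. The summed share of counts in the 77 genes with MM401 was 0.796 times that with DMSO in 4 h water and 0.838 times in 1 h bicuculline, but 1.05 times in 4 h bicuculline, where it was higher. Over all 3 conditions it was 0.882 times as high, and 0.889 times when shares were taken of counts in genes under 100 kb.

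**Figure D5:**
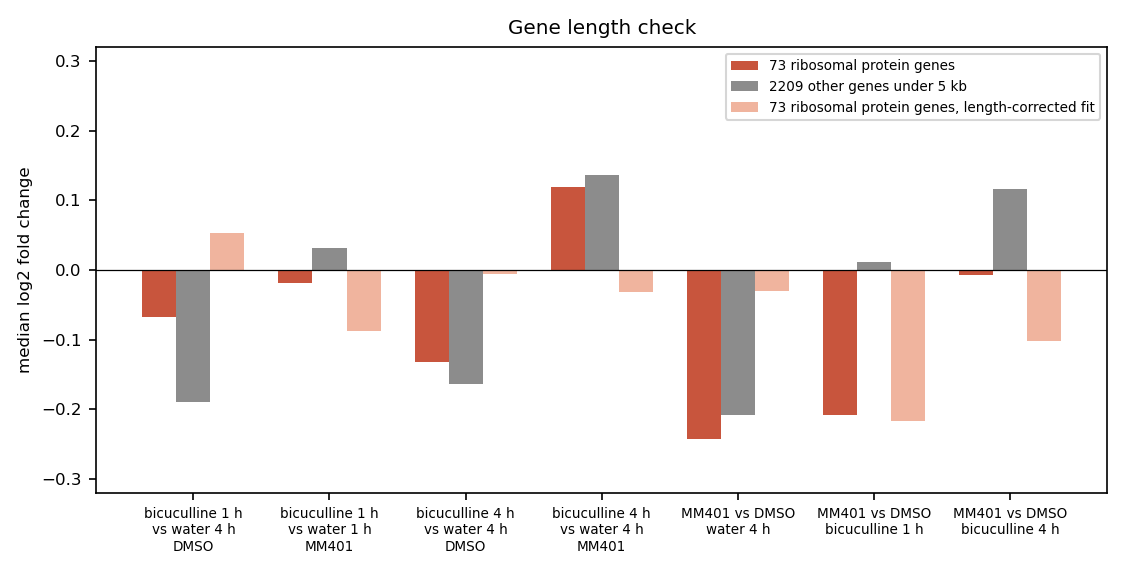
Median log2 fold change (vertical axis) of the 73 ribosomal protein genes and of 2209 other genes under 5 kb, and of the 73 genes in the length-corrected fit, for 7 comparisons. The 2 classes have like medians for 4 h of bicuculline against water and for MM401 against DMSO in water. They differ for MM401 against DMSO in bicuculline at 1 h (-0.21 and 0.01) and at 4 h (-0.007 and 0.12). They also differ for 1 h of bicuculline in DMSO (-0.07 and -0.19), and with MM401 that comparison gave -0.02 and 0.03.

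Other genes of protein synthesis were read from lists written with earlier results known. Of 78 mitochondrial ribosomal protein genes, which serve a separate ribosome, 51 fell and 2 rose at 1 h in DMSO, 49 and 2 at 4 h, 37 and 1 at 1 h with MM401, and 22 and 1 at 4 h. Their medians were -0.35, -0.34, -0.23 and -0.17. Of 34 genes of ribosome biogenesis 15 fell and 2 rose at 1 h in DMSO, 22 and 3 at 4 h, 13 and 2 at 1 h with MM401, and 18 and 2 at 4 h. Over all genes tested the shares called lower and higher were 24.5% and 20% at 1 h in DMSO, 25.5% and 23.7% at 4 h, 21.8% and 18.1% at 1 h with MM401, and 21.7% and 23% at 4 h. The mitochondrial genes had 65.4%, 62.8%, 47.4% and 28.2% called lower in these comparisons, and the biogenesis genes 44.1%, 64.7%, 38.2% and 52.9%. These shares are descriptions, with no test of the lists. In the mean effect of MM401 none of either list was called (medians of -0.04 and 0.02).

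Of 22 other TOP genes, such as translation elongation factors, 6 rose and 3 fell at 1 h in DMSO, 3 and 4 at 4 h, 6 and 4 at 1 h with MM401, and 4 and 3 at 4 h. In the mean effect of MM401 1 fell, Eef1g, a subunit of the elongation factor that reloads eEF1A (edgeR adjusted p = 0.0032). Of 15 genes upstream in growth control, such as the mTOR pathway, 3 rose and 2 fell, 4 and 5, 2 and 5, and 3 and 3 in those comparisons, and none was called in the mean effect. Such counts, from few genes, are not set apart from the shares over all genes. Of the 7 tested paralogs and fusions that the symbol rule leaves out, 1 rose and 1 fell in each bicuculline comparison but that at 4 h with MM401, where 2 rose, and none was called in the mean effect.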

How the data were processed

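The authors deposited 1 table of raw, unnormalized counts for 21 libraries. Per the file headers it is a featureCounts table of whole gene spans; the submitters' processing notes name mm10, Bowtie2, featureCounts, UMI-tools, deepTools and DESeq2. The strand setting, the handling of multiply mapped reads and versions are not given in the sources used here, so counts of overlapping genes and near-copies are uncertain.

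Counts were tested in R 4.3.3 with edgeR 4.0.16 (robust quasi-likelihood, TMM, filterByExpr with a minimum count of 10 and total of 15, 7 group means, 20 libraries, two-sided). P-values were Benjamini-Hochberg adjusted over all 16959 genes tested in each of 12 comparisons and called under 0.05. CPM are TMM-scaled counts-per-million values. The biological coefficient of variation was 8.77%. The length correction removed a loess trend (span 0.3) of each library's log CPM on log length, by offsets. DESeq2 1.42.0, RLE and plain scaling, no filter, all libraries, the compared groups alone, a replicate block and each library left out were alternatives. The code was tested on simulated data.

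The ribosomal protein genes and lists were chosen with earlier results of these data known. Named were up to 4 called genes with the largest fold changes each way (at least 2 CPM in the higher group), Rpl3, Rpl4, Rpl22, Rplp0, Rps2, Rps6, Rpsa, untested genes and extremes; further called genes are listed by symbol, and some called genes are counted but not reported here by name. The 19 pairs of replicates differed beyond sampling noise (chi-square per degree of freedom of 5.46 to 67.9). The replicates are called biological, but which cultures they came from is not given, so p-values measure the spread between these libraries. Same-numbered libraries deviated together (correlations of 0.150, 0.107 and 0.172) in 1 pair of groups, MM401 and DMSO in bicuculline at 4 h, where the block left 0 calls.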

Additional observations from a re-analysis of the deposited data

How the results depend on the processing

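Of the counts of called ribosomal protein genes in the 12 comparisons, 80 of 97 values under alternatives that leave out no replicate stayed within 1.5 times of the reported count. The others were, for bicuculline 1 h in DMSO, 9 with all 21 libraries and 25 under plain library size. For bicuculline 4 h in DMSO they were 10, 48 and, in the compared groups alone, 11. For bicuculline 1 h with MM401 the count was 11 with all libraries, and for 4 h it was 4 under plain library size and 13 in the compared groups alone. For MM401 against DMSO it was 4 by DESeq2 in water 4 h, 4 by DESeq2 and 2 with the length correction in bicuculline 1 h, and in the mean effect 0 with all libraries, 1 under plain library size, 5 in the compared groups alone and 2 over the bicuculline conditions (the last chosen after seeing the data). From 1 h to 4 h of bicuculline it was 3 in DMSO and 1 with MM401 with all libraries.

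With 1 library left out the counts ran from 10 to 17 (bicuculline 1 h, DMSO), 10 to 27 (4 h, DMSO), 13 to 17 (1 h, MM401), 2 to 8 (4 h, MM401), 0 to 19 (MM401 in water), 0 to 1 and 0 to 0 (in bicuculline 1 h and 4 h), 4 to 14 (mean effect), 0 to 8 and 2 to 8 (4 h against 1 h in DMSO and MM401), 0 to 0 (water) and 0 to 3 (interaction). A group left with 1 library was assumed to vary like the others.

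Replicate numbers gave no general pairing: 27 correlations of deviations ran from -0.229 to 0.241. With the replicate block the counts were 15, 19, 21 and 10 for the bicuculline comparisons, 10 for the mean effect, and 6 and 9 for 4 h against 1 h, and it changed no other count.

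Signs turned for genes that were not called, and for Rpl24 and Rpl4, which lost the call. Under plain library size Rpl3 at 1 h in DMSO was -0.0952, Rpl24 and Rpl4 at 4 h in DMSO -0.0289 and -0.0479, and Rpl3, Rpl22, Rplp0 and Rpsa at 1 h with MM401 -0.0689, -0.18, -0.0795 and -0.18. Rps2 at 1 h with MM401 was 0.00178 under RLE and 0.00119 by DESeq2. With the length correction Rplp0, Rps2 and Rps6 at 1 h in DMSO were 0.00965, 0.0764 and 0.0861. With 1 library left out, values at 1 h in DMSO ran from -0.184 to 0.0299 (Rps2) and -0.201 to 0.108 (Rps6), at 1 h with MM401 from -0.102 to 0.0833 (Rps2), -0.0658 to 0.0788 (Rpsa) and -0.0220 to 0.0692 (Rpl22), and in the mean effect of MM401 from -0.0296 to 0.0721 (Rplp0). The causes of these moves were not tested.

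Precision is limited by group sizes of 2 or 3 and, for the least covered gene, Rpl36, by 54 to 222 counts per library.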
